A study of Homo sapiens with 5 samples.

Results

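The genes described here are 9 human genes that type I interferon switches on: IFI44L, IFI6, ISG15, IFIT1, IFIT2, IFIT3, MX1, IFITM3 and BST2. They were chosen by name, as interferon-induced genes, out of 36601 genes listed for the graft libraries, and 32732 of those genes are also listed for the organoids that were never grafted. The levels of the 9 genes were followed in all 5 libraries, over all human cells and within cell classes set by marker genes. The cells came from H9, a human embryonic stem cell line of the WT genotype, which according to the study's methods carries channelrhodopsin and EYFP at the AAVS1 locus. Group D0 was brain organoids at culture day 42, before transplantation. In groups PFC_2MPT and PFC_4MPT the organoids had been placed in the prefrontal cortex (PFC) of mice and were taken 2 or 4 months post-transplantation (MPT), and in groups HIP_2MPT and HIP_4MPT they had been placed in the hippocampus (HIP). Each group is 1 library made from several pooled organoids or hosts, so the spread between animals was not measured. The hosts were SCID-Beige mice, which lack functional T and B lymphocytes and have weak natural killer cells but keep microglia and macrophages.

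Type I interferons are secreted proteins that bind a receptor made of IFNAR1 and IFNAR2. The receptor works through the kinases JAK1 and TYK2 to assemble a complex that includes STAT2 and IRF9, and this complex binds an interferon-stimulated response element near its target genes. In the brain the response restrains viruses, and several of its genes are also transcribed at a low level without infection. The 9 proteins act at different steps. IFITM3 blocks the fusion of viruses with endosomal membranes, BST2 (tetherin) holds budding virus particles on the cell surface, and MX1 is a GTPase that stops incoming viral particles. IFIT1, IFIT2 and IFIT3 bind one another and act on foreign RNA and its translation, and ISG15 is a ubiquitin-like protein that is attached to other proteins. IFI6 is a small membrane protein with antiviral activity, and IFI44L is a marker of the response whose biochemical role is less settled.

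On GRCh38 the genes lie on 5 chromosomes. ISG15 is at chr1:1001138-1014540, IFI6 at chr1:27666064-27672212 and IFI44L at chr1:78619902-78646145. IFIT2 at chr10:89283694-89309271, IFIT3 at chr10:89327307-89377473 and IFIT1 at chr10:89392546-89406487 are neighbours, and LIPA, a lysosomal lipase gene, spans all 3 on the opposite strand. IFITM3 is at chr11:319676-329475, beside its near-identical relatives IFITM1 and IFITM2, BST2 is at chr19:17402939-17405630, and MX1 at chr21:41420020-41470071 ends inside TMPRSS2 on the opposite strand. Whether the counting used strand was not given in the sources used here, and reads that could belong to more than 1 IFITM gene may be split between them or lost, so the IFITM3 values are uncertain to that extent.

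The response element is built on the letters GAAANNGAAA. In the RefSeq promoter table for GRCh38.p14, these letters or their reverse complement TTTCNNTTTC were searched, on both strands and allowing overlaps, within the 250 bases before each gene's start. All 8 of the 9 genes that the table holds had at least 1 match, against 1014 of 27305 genes (3.71%); IFIT2 is not in the table. The stretches around the matches are shown for 5 genes that the results turn on, from 5′ to 3′ on the strand of the gene, with the matched letters in capitals.
ISG15, chr1:1013369-1013414, + strand: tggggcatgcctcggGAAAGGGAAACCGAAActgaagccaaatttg
IFI6, chr1:27672324-27672363, - strand: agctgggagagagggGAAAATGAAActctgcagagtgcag
IFI44L, chr1:78620269-78620308, + strand: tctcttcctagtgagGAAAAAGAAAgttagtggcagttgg
IFIT1, chr10:89392492-89392544, + strand: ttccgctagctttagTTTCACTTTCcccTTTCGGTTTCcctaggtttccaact
IFITM3, chr11:320871-320927, - strand: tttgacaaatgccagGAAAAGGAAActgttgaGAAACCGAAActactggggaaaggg
Counted from the RefSeq starts, ISG15 held 2 overlapping copies 113 and 107 bases before its start, IFIT1 2 copies at 116 and 103 bases, and IFITM3 2 copies at 52 and 35 bases. The RefSeq starts differ from the gene bounds given above for ISG15, IFI44L and IFITM3, whose stretches lie inside those bounds. IFI6 held 3 copies and IFI44L held 2, of which the one farthest from the start is shown. A match describes the letters only and does not show that the site was bound in these cells.

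The 5 libraries held 34390 human cells after filtering, from 4885 in D0 to 8363 in PFC_4MPT. D0 was the deepest, with a median of 9847 UMIs (unique molecular identifiers, each counting 1 captured RNA molecule) per cell, against 1253 to 2759 in the graft libraries. It was also dissociated with another enzyme (TrypLE rather than Trypsin-EDTA) and counted with another Cell Ranger release and gene annotation. The graft cells were also 2 or 4 months older than the D0 organoids. In every comparison with D0 this age and the differences above cannot be told apart from transplantation. The median mitochondrial share was 7.31% in PFC_4MPT and 2.35% to 3.77% in the other 4 libraries. Barcodes shared between any pair of libraries numbered 6 to 20. Levels below are given as CPM, a gene's UMIs in every 1000000 human UMIs, and are compared for 1 gene between samples, never between genes, because 3′ counts are not corrected for how well each transcript is captured. In sums of this kind, fewer cells of a type and less RNA per cell cannot be told apart.

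Over all human cells, IFI44L, IFITM3, BST2 and ISG15 were higher in the ungrafted organoids than in each graft library. IFI6 was higher in each graft library than in D0. How many of all genes had D0 above or below every graft library was not counted. IFI44L stood at 67.1 CPM in D0, with a counting interval of 65.0 to 69.3. It stood at 3.31 in HIP_2MPT, 11.6 in HIP_4MPT, 8.39 in PFC_2MPT and 8.78 in PFC_4MPT, or 8.01 ± 3.44 CPM over the grafts (SD, n = 4). No graft library came near D0. IFITM3, the endosomal restriction factor, was likewise highest in D0, with 66.4 CPM in D0, 9.20 in HIP_2MPT, 21.8 in HIP_4MPT, 19.8 in PFC_2MPT and 26.3 in PFC_4MPT (graft mean 19.3 ± 7.25 CPM, SD, n = 4). BST2 was at 11.1 CPM in D0, 1.43 in HIP_2MPT, 5.64 in HIP_4MPT, 2.05 in PFC_2MPT and 5.51 in PFC_4MPT, so that its 2 libraries of 4MPT lay above both of 2MPT and below D0.

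ISG15 was also highest in D0, whereas IFI6 was lowest there. ISG15, the ubiquitin-like modifier, stood at 23.4 CPM in D0, 13.4 in HIP_2MPT, 7.60 in HIP_4MPT, 7.66 in PFC_2MPT and 17.3 in PFC_4MPT. Its level was lower at 4MPT than at 2MPT in the hippocampus and higher in the prefrontal cortex. IFI6 stood at 20.03 CPM in D0, below every graft library, with 31.3 in HIP_2MPT, 32.5 in HIP_4MPT, 23.9 in PFC_2MPT and 48.5 in PFC_4MPT (34.1 ± 10.4 CPM, SD, n = 4).

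The IFIT genes and MX1 were sparse. IFIT1 was at 4.01 CPM in D0, 0.893 in HIP_2MPT, 4.24 in HIP_4MPT, 1.26 in PFC_2MPT and 5.57 in PFC_4MPT, and the 2 libraries of 2MPT held 10 and 19 of its UMIs. IFIT2 was lowest in D0, at 0.286 CPM (16 UMIs), with 0.536 in HIP_2MPT, 2.70 in HIP_4MPT, 0.793 in PFC_2MPT and 1.66 in PFC_4MPT. IFIT3 was at 2.45 CPM in D0, 2.32 in HIP_2MPT, 5.22 in HIP_4MPT, 2.05 in PFC_2MPT and 3.68 in PFC_4MPT. For each of these 3 genes both graft libraries of 4MPT lay above both of 2MPT. The same held for IFI44L, IFI6, IFITM3 and BST2. How many of all genes show this order was not counted. MX1 ranged from 0.716 CPM in D0 to 1.61 in HIP_2MPT, with 16 to 40 UMIs in each library, and its graft libraries overlapped between the 2 stages.

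**Figure D1:**
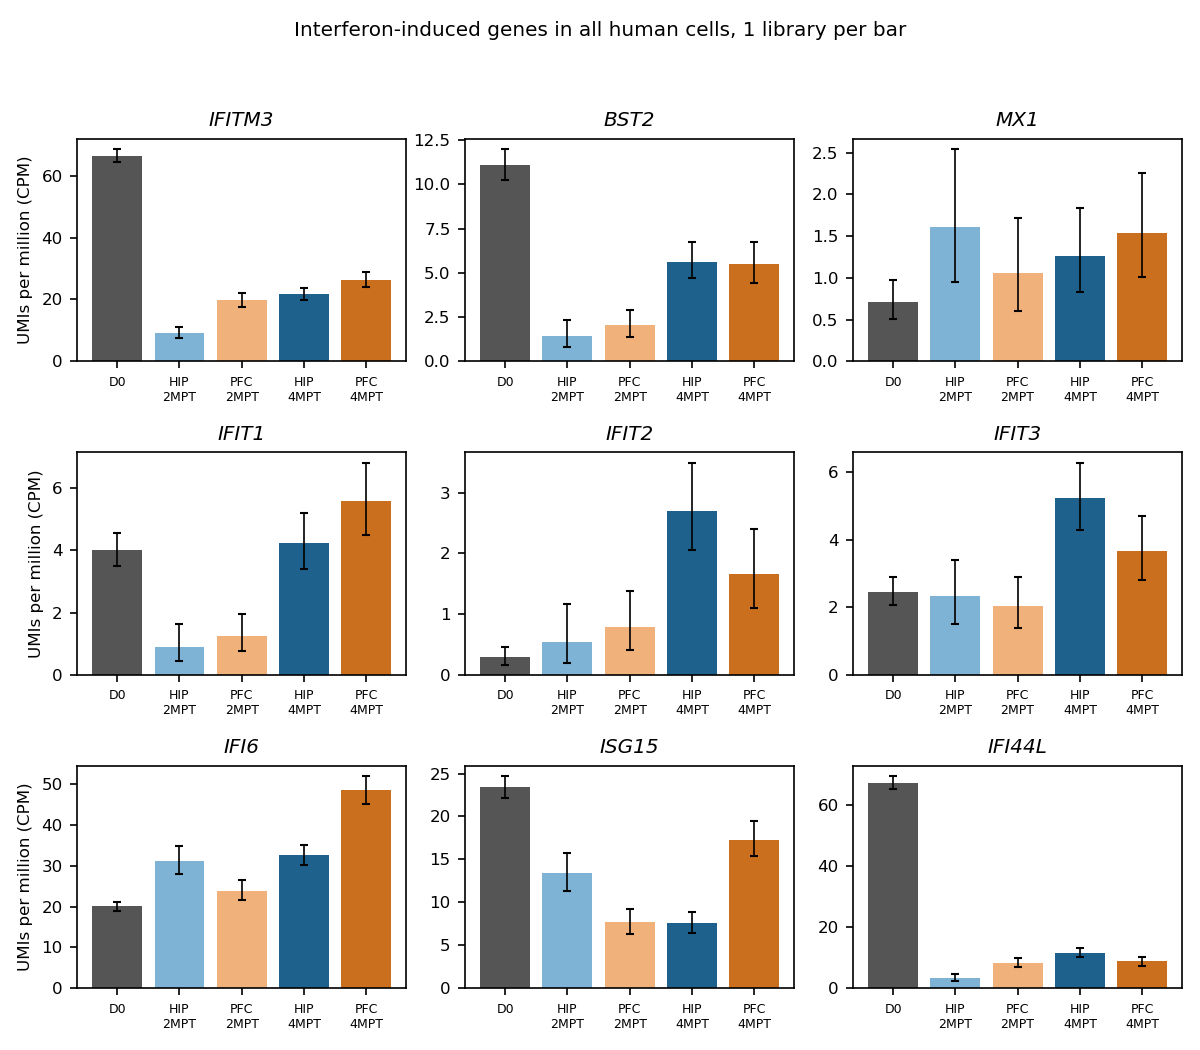
Level of each of the 9 genes over all human cells in each library, in CPM on a linear axis from 0. Each coloured bar is 1 library and its error bar the exact Poisson interval, which covers counting error only. IFI44L stood at 67.1 CPM in D0 and between 3.31 and 11.6 CPM in the grafts, while IFI6 was higher in every graft library than in D0.

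Which human cells carried these transcripts was asked first, within the grafts. Classes were named from marker genes after clustering without the 9 genes or any other gene of the interferon lists, so the members had no part in forming the classes. The larger astrocyte-like cluster held 346 of the 355 astrocyte-like cells of HIP_2MPT, 411 of 412 of PFC_2MPT and all 101 of D0. Both 8 of 10 astrocyte markers and 8 radial glia markers were raised in it, and its name follows the higher astrocyte score (1.76 against 1.34). No listed marker was among its 10 leading genes. In the 4 graft libraries, astrocyte-like cells held higher levels than neuron-like cells of all 9 genes in 4 of 4 libraries. How many of all genes kept this order was not counted. Some of these orders rest on few molecules, since astrocyte-like cells of HIP_2MPT held 1 UMI of MX1 and 2 of IFIT2. BST2 stood at 18.9, 36.2, 17.4 and 37.6 CPM in astrocyte-like cells of HIP_2MPT, HIP_4MPT, PFC_2MPT and PFC_4MPT, and at 0.513, 0.641, 0.0881 and 0.526 CPM in neuron-like cells of the same libraries. IFITM3 stood at 96.7, 88.5, 126 and 111 CPM in astrocyte-like cells and at 2.77, 1.92, 1.59 and 4.82 CPM in neuron-like cells, in the same order. The groups did not overlap for either gene, and the astrocyte-like cells made up 355 to 702 cells of a graft library, against 4740 to 7364 neuron-like cells.

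The remaining members separated the classes by differing amounts. IFI44L averaged 48.1 ± 13.2 CPM in astrocyte-like cells and 1.39 ± 0.872 CPM in neuron-like cells of the grafts (SD, n = 4). IFI6 was closer, with 35.7 against 30.5 CPM in HIP_2MPT and 136 against 34.3 CPM in PFC_4MPT. For ISG15 the ratio of the 2 classes stayed between 3.18 and 3.79 in the 4 graft libraries, a narrower range than the 36.9 to 198 of BST2 or the 18.5 to 100 of IFI44L. The 198 of BST2 in PFC_2MPT rests on 1 UMI in the neuron-like cells. IFIT1 rested on few molecules in the 2MPT libraries. Astrocyte-like cells held 1 UMI of it in HIP_2MPT and 6 in PFC_2MPT, against 56 in HIP_4MPT and 38 in PFC_4MPT. Oligodendrocyte-lineage-like cells, 64 in HIP_4MPT and 100 in PFC_4MPT, were left out of these comparisons. In PFC_4MPT they stood above astrocyte-like cells for IFI6 (184 CPM), ISG15 (110), IFIT1 (70.5) and IFIT3 (27.4). They stood below them there for IFI44L, IFIT2, MX1, IFITM3 and BST2. In HIP_4MPT they stood below astrocyte-like cells for IFI6 (32.9 CPM), IFIT3 (9.40), ISG15 and IFIT1. Cells of a cluster that the markers gave no name, 874 in HIP_4MPT and 632 in PFC_4MPT, were left out as well.

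In the test over summed counts per library and class, with the library as a block (edgeR's quasi-likelihood test, Benjamini-Hochberg adjusted over 17093 genes), all 9 members passed the low-count filter and all 9 were higher in astrocyte-like cells, where 21.5% of all tested genes were called higher. The log2 fold change was 5.80 (SE 0.34, adjusted p = 1.35e-07) for BST2, 5.13 (SE 0.26, adjusted p = 4.13e-08) for IFITM3 and 4.93 (SE 0.31, adjusted p = 2.5e-07) for IFI44L. The RNA-binding IFIT genes followed, with 4.36 (SE 0.49, adjusted p = 2.15e-05) for IFIT1, 3.92 (SE 0.52, adjusted p = 8.06e-05) for IFIT2 and 2.32 (SE 0.33, adjusted p = 0.000155) for IFIT3. The smallest differences were those of ISG15, at 1.62 (SE 0.19, adjusted p = 2.98e-05), and of IFI6, at 1.52 (SE 0.24, adjusted p = 0.00035), and MX1, also at 1.52 (SE 0.51, adjusted p = 0.0308). The median over the members was 3.92, and over all tested genes -0.04. The call of MX1 was lost when 3 of the 4 libraries were left out in turn (adjusted p from 0.0777 to 0.133) and without the filter on low counts (adjusted p = 0.0551). The genes that formed the clusters are among those behind the 21.5%.

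**Figure D2:**
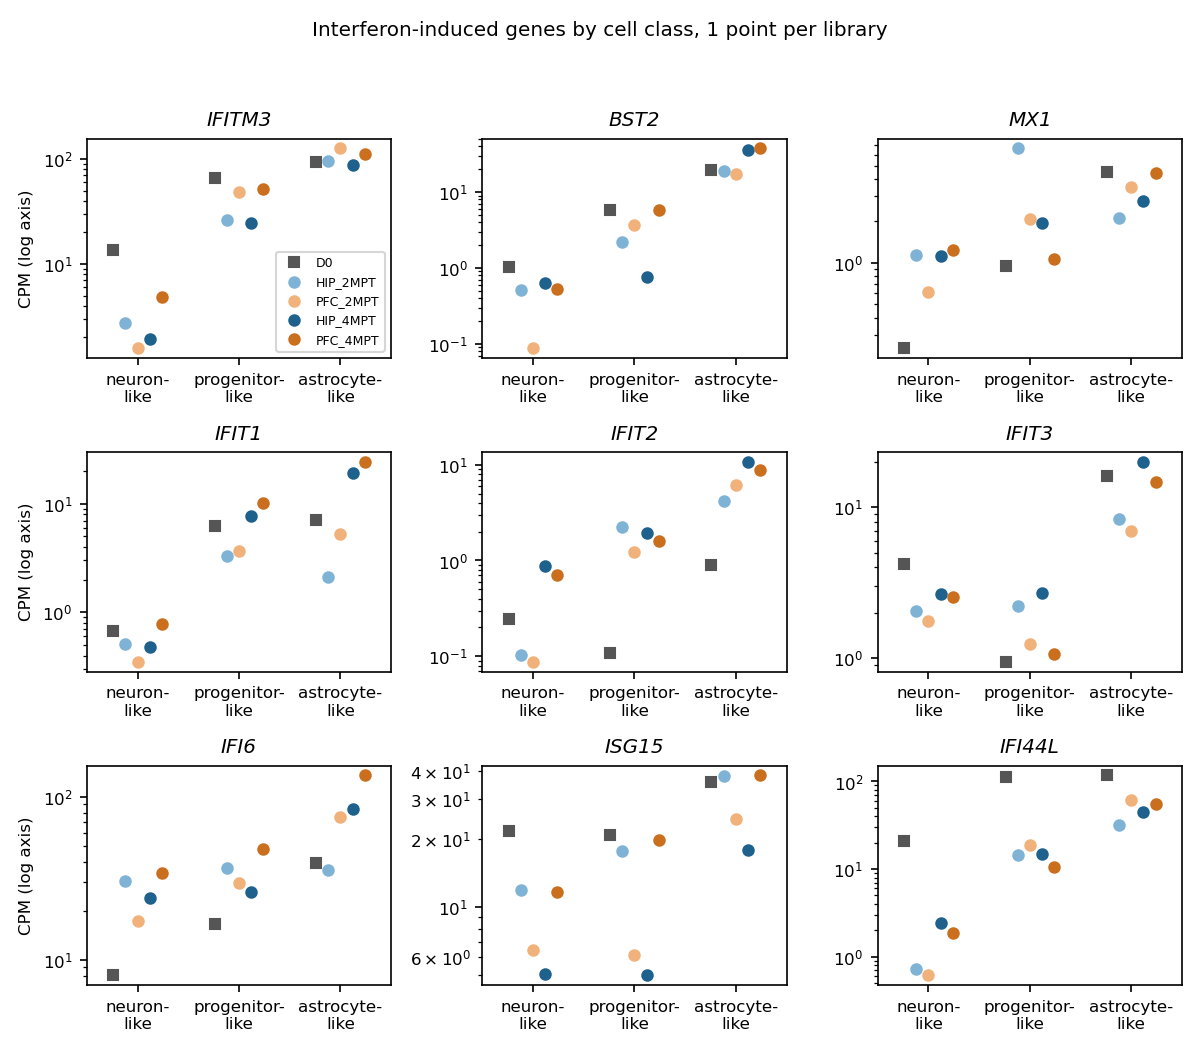
Level of each gene in astrocyte-like, progenitor-like and neuron-like cells of each library, in CPM on a log axis, with 1 point per library and squares for D0. For BST2 the astrocyte-like points of the grafts lie between 17.4 and 37.6 CPM and the neuron-like points below 1.

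Progenitor-like cells stood between the other two classes for some members and beside the neuron-like cells for others. In HIP_2MPT they stood above astrocyte-like cells for IFI6 (36.5 against 35.7 CPM), IFIT1 (3.32 against 2.10) and MX1 (6.64 against 2.10). Astrocyte-like cells of that library held 1 UMI of IFIT1 and 1 of MX1. IFITM3 stood at 26.6, 24.5, 48.7 and 51.7 CPM in progenitor-like cells of HIP_2MPT, HIP_4MPT, PFC_2MPT and PFC_4MPT, and its log2 difference from neuron-like cells was 3.86 (adjusted p = 9.48e-08). IFI44L averaged 14.7 ± 3.35 CPM there (SD, n = 4), with a log2 difference of 3.45 (adjusted p = 1.05e-05), and IFIT1 averaged 6.20 ± 3.27 CPM (SD, n = 4), with 3.58 (adjusted p = 2.21e-05). All 9 members passed the filter and 6 were called higher than in neuron-like cells, where 22.9% of 16107 tested genes were. The calls of BST2 (2.80, adjusted p = 0.00528), IFIT2 (1.94, adjusted p = 0.0413) and IFI6 (0.47, adjusted p = 0.0178) were lost under some alternatives. Without the library as a block 3 members were called. There IFI6 was tested and not called (0.47, adjusted p = 0.212), and the other lost calls were of members that did not pass the low-count filter. ISG15 (0.41, adjusted p = 0.153), MX1 (1.31, adjusted p = 0.0645) and IFIT3 (-0.30, adjusted p = 0.611) did not pass the test.

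Within the progenitor-like cells the 9 genes did not share 1 cluster. IFI44L was highest in a cluster named radial glia and led by PRKCB, at 129 CPM in D0 and 25.8, 25.6, 31.8 and 37.3 CPM in HIP_2MPT, HIP_4MPT, PFC_2MPT and PFC_4MPT. It was among that cluster's 10 leading genes although it had no part in forming it. Leading genes were ranked on counts pooled over the 5 libraries. D0 gave 1199 of the cluster's 1838 cells, and its part in this rank was not tested. In each library, D0 included, the interval of IFI44L in this cluster overlapped that of at least 1 other progenitor-like cluster. A further progenitor-like cluster, led by MYBL2, CDC6 and TK1, was also named radial glia. IFIT1 was instead concentrated in a dividing cluster led by NEK2 and CDC20, genes of mitosis. It stood there at 14.7 CPM in D0 (107 UMIs), 8.87 in HIP_2MPT (2 UMIs), 26.0 in HIP_4MPT (19 UMIs), 13.8 in PFC_2MPT (8 UMIs) and 34.4 in PFC_4MPT (15 UMIs). In another dividing cluster, led by histone genes and RRM2 of DNA synthesis, the level of IFIT1 was 2.13 CPM in D0 and 0 to 3.24 CPM in the grafts, below the mitotic cluster in 5 of 5 libraries. This pair of clusters was chosen after its values were seen and carries no test.

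**Figure D3:**
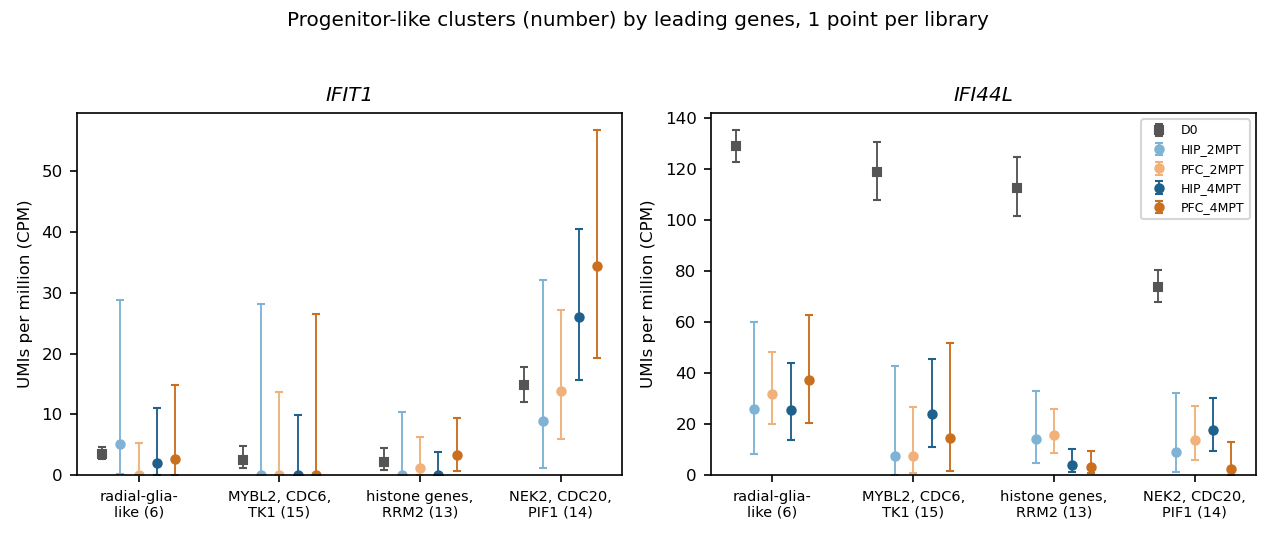
Level of IFIT1 and of IFI44L in the 4 progenitor-like clusters of each library, in CPM, with exact Poisson intervals. IFIT1 in the mitotic cluster was above the histone-gene cluster in every library, 14.7 against 2.13 CPM in D0, and IFI44L had its highest level in the radial-glia-like cluster, with intervals that overlap those of other clusters.

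Before transplantation the class order was the same for IFI44L, IFITM3 and BST2, with a smaller ratio of astrocyte-like to neuron-like cells than in any graft library. That ratio was also smaller in D0 than in any graft library for ISG15, IFIT2 and IFIT3. For IFI6 (4.86) and MX1 (18.4) it was instead larger in D0 than in any graft library, and for IFIT1 (10.5) it lay within the graft range. The value of MX1 rests on 5 UMIs in each class, those of the astrocyte-like class found in 2 cells. Astrocyte-like cells of D0 held 1 UMI of IFIT2. Their 18 UMIs of IFIT3 were found in 2 cells, and the largest count of IFIT3 in 1 cell of D0 was 17. Like IFI44L, the genes IFI6, MX1 and IFIT1 were highest in astrocyte-like and lowest in neuron-like cells among the classes compared. In D0, IFI44L stood at 117 CPM in astrocyte-like, 111 CPM in progenitor-like and 20.8 CPM in neuron-like cells. D0 also held 385 choroid-plexus-like cells (7.88% of its cells), in which IFITM3 stood at 230 CPM, IFI6 at 69.0 CPM and BST2 at 63.3 CPM, each above the astrocyte-like, progenitor-like and neuron-like cells of D0. Their cluster had 7 of 7 choroid plexus markers raised, and also 6 mesenchymal or mural markers. The grafts held too few choroid-plexus-like cells for a value, and D0 held 101 astrocyte-like cells, so its astrocyte-like levels rest on 1 small sum.

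Whether the genes changed between 2 and 4 months in the host was asked over all human cells and then within each class. Over all human cells IFIT1 and BST2 rose. IFIT1 went from 1.07 ± 0.256 CPM at 2MPT to 4.91 ± 0.943 CPM at 4MPT (SD, n = 2 in each), a log2 fold change of 2.23 (SE 0.44, adjusted p = 0.0264). BST2 went from 1.74 ± 0.437 to 5.58 ± 0.0876 CPM (SD, n = 2 in each), a log2 fold change of 1.72 (SE 0.37, adjusted p = 0.0388). These 2 members of 9 compare with 1.85% of 19074 genes called higher. The other 7 had positive estimates that did not pass the test, from 1.74 for IFIT2 (adjusted p = 0.17) and 1.08 for IFIT3 (adjusted p = 0.239) to 0.14 for MX1 (adjusted p = 0.947). Astrocyte-like cells, in which the members were higher than in neuron-like cells, numbered 355 and 412 at 2MPT and 702 and 544 at 4MPT. As shares of their libraries they were 4.29% in HIP_2MPT and 10.15% in HIP_4MPT, but 6.92% in PFC_2MPT and 6.505% in PFC_4MPT. Cells of a cluster given no name, led by GSX1, were 0.338% of HIP_2MPT and 1.01% of PFC_2MPT. At 4MPT they were 12.6% of HIP_4MPT and 7.56% of PFC_4MPT. They held 3.31% of the BST2 UMIs of HIP_4MPT and 18.3% of those of PFC_4MPT. For IFIT1 these shares were 7.69% and 10.6%. The part of these differences in makeup in the all-cell values was not tested.

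Both calls depended on single libraries. Without HIP_4MPT or without PFC_4MPT no member was called, without HIP_2MPT 1 was, and without PFC_2MPT 4 were, with IFI44L (1.70) and IFITM3 (1.47) added. After the removal of the cells that held UMIs of 3 or more members, chosen after seeing the data, IFIT1 was at 1.597 (adjusted p = 0.128) and BST2 at 1.04 (adjusted p = 0.323), and no member was called. That rule removes cells by the members' own counts and so lowers the members wherever they are high.

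Within astrocyte-like cells IFIT1 was again the member that rose, from 2.10 and 5.22 CPM in the 2MPT libraries to 19.3 and 24.2 CPM in those of 4MPT. Its log2 fold change was 2.39 (SE 0.54, adjusted p = 0.0257), and it was the 1 member called of the 8 that passed the filter, where 2.4% of 11873 genes were called higher. The call was lost without HIP_4MPT, without PFC_4MPT and with DESeq2 (2.46, adjusted p = 0.134). One of the 2 astrocyte-like clusters, with SPARCL1, AGT and AQP4 among its leading genes, held 9 cells of HIP_2MPT and 1 of PFC_2MPT, against 165 of HIP_4MPT and 130 of PFC_4MPT. Without that cluster, an alternative added after seeing the data, IFIT1 was at 2.39 (adjusted p = 0.0493). BST2, at 18.9 and 17.4 CPM in the 2MPT libraries and 36.2 and 37.6 CPM in those of 4MPT, did not pass the test there (log2 fold change 1.10, adjusted p = 0.115). IFITM3 (-0.12), ISG15 (-0.05) and IFI44L (0.05) had estimates near 0. In neuron-like cells none of the 8 members tested was called by edgeR or DESeq2 (1.06% of genes called in either direction), although IFI44L (1.71) and IFIT2 (2.98) had unadjusted p under 0.05. In progenitor-like cells none of the 7 tested was called by either tool (0.881% of genes called), and IFIT1 (1.44) had an unadjusted p under 0.05.

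**Figure D4:**
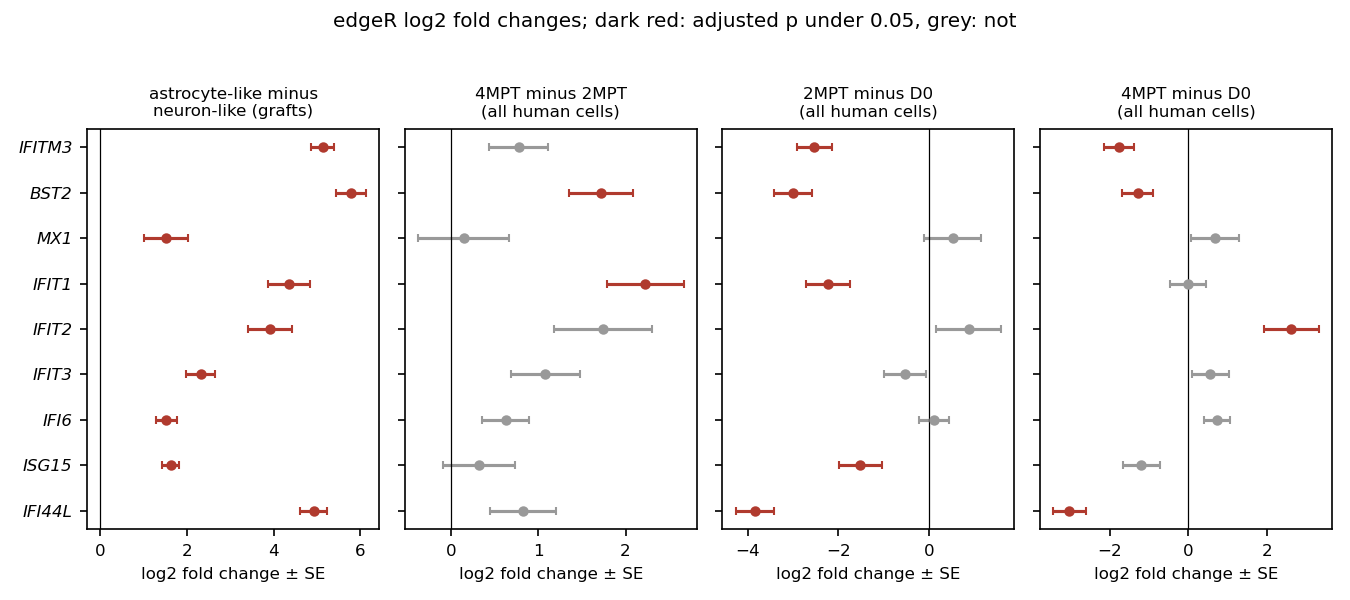
Log2 fold changes of the members with their standard errors in 4 comparisons. Dark red points passed the adjusted threshold of 0.05 and grey points did not: all 9 members are red for astrocyte-like against neuron-like cells, 2 for 4MPT against 2MPT, 5 for 2MPT against D0 and 4 for 4MPT against D0.

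Whether the grafts differed from the organoids before transplantation was tested for each stage. Both comparisons share D0, a single library with no replicate, so its spread was taken from the pairs of graft libraries. At 2MPT, 5 members were lower than in D0 over all human cells, where 21.1% of genes were called lower. They were IFI44L (log2 -3.85, adjusted p = 6.6e-05), BST2 (-3.01, adjusted p = 0.000229), IFITM3 (-2.53, adjusted p = 0.000454), IFIT1 (-2.23, adjusted p = 0.00374) and ISG15 (-1.52, adjusted p = 0.0221). At 4MPT, 3 were lower, where 21.4% of genes were: IFI44L (-3.02, adjusted p = 0.000216), IFITM3 (-1.76, adjusted p = 0.00349) and BST2 (-1.29, adjusted p = 0.0182). IFIT2 was higher (2.61, adjusted p = 0.0102), where 28.7% of genes were called higher, and IFIT1 had an estimate of 0.00 (adjusted p = 0.996). IFI6, although above D0 in each graft library, did not pass the test at 2MPT (0.10, adjusted p = 0.82) or at 4MPT (0.73, adjusted p = 0.0977), and ISG15 did not pass it at 4MPT (-1.20, adjusted p = 0.0548). ISG15 at 4MPT was called lower without HIP_2MPT (adjusted p = 0.00191), without PFC_2MPT (adjusted p = 0.00147), without PFC_4MPT (adjusted p = 0.0291), without the low-count filter (adjusted p = 0.00209) and with a stricter limit on the human share (adjusted p = 0.044). IFI6 at 4MPT was called higher without HIP_2MPT (adjusted p = 0.0446), without HIP_4MPT (adjusted p = 0.0398) or without PFC_2MPT (adjusted p = 0.0474). The call of IFIT2 was lost without HIP_4MPT (adjusted p = 0.0804), and that of BST2 without HIP_4MPT (adjusted p = 0.0783) or PFC_4MPT (adjusted p = 0.0856).

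The makeup of the libraries differed too. Neuron-like cells were 43.4% of D0 and 89.0% of HIP_2MPT, and progenitor-like cells, in which several members were higher, were 46.5% of D0. Choroid-plexus-like cells, of which the graft libraries held 0 to 7, carried 67.4% of the BST2 UMIs of D0, 40.8% of those of IFITM3 and 40.6% of those of IFI6. The same tests were therefore run within classes, chosen after seeing the data. The neuron-like cells still differed in makeup, since 1 cluster led by NTS, NPTX1 and EBF2 held 1076 of the 2122 neuron-like cells of D0 and 1 graft cell, and its part in the values was not tested. In neuron-like cells IFI44L was lower at 2MPT (-5.08, adjusted p = 1.5e-05) and at 4MPT (-3.38, adjusted p = 6.52e-05). IFITM3 (-2.79 and -2.09) and ISG15 (-1.39 and -1.46) were also lower at both stages. IFI6 was higher at both, by 1.42 (adjusted p = 0.0148) and 1.76 (adjusted p = 0.00454). These 4 members of 8 tested at each stage compare with 43.7% and 47.4% of genes called in either direction, so the count itself is near the background. In progenitor-like cells IFI44L was the 1 member called of 7 tested, at -3.06 (adjusted p = 8.87e-06) and -3.33 (adjusted p = 3.05e-06), where 35.6% and 38.2% of genes were called. IFITM3 (-1.11 and -1.02), ISG15 (-1.37 and -1.02) and BST2 (-1.20 and -1.12) had negative estimates there that did not pass the test. IFI44L was the 1 member called lower in the grafts than in D0 over all cells and within both classes, at both stages.

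Between the 2 host sites no member was called by edgeR's quasi-likelihood test or by DESeq2. With the stage in the fit, 0 of 9 passed over all cells (0.0827% of genes called), 0 of 6 tested in neuron-like cells (0.00598%) and 0 of 8 tested in astrocyte-like cells (0.0253%). Unadjusted p under 0.05 were found for IFITM3 over all cells, which was higher in the prefrontal cortex by 0.73 (SE 0.34), and for IFI6 in astrocyte-like cells, higher there by 0.84 (SE 0.31). In simulated counts of the all-cell comparison the same test found 25 of 100 genes changed 2-fold and 96 of 100 changed 4-fold. The changes were placed only on genes with a mean over 10 CPM. Site differences of 2-fold could therefore often be missed at this depth. Recovery was not tested separately at the members' own levels. Their means over the graft libraries ran from 1.37 CPM for MX1 to 34.1 CPM for IFI6. Those of IFI44L, BST2, IFIT1, IFIT2, IFIT3 and MX1 were under 10 CPM, so the simulated recovery does not describe them.

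The rest of the pathway was read from lists of genes. Interferons themselves were hardly seen: of 21 ligand genes, D0 held 4 UMIs in all and each graft library held 0, where 0 counts allow up to 0.14 to 0.268 CPM. The receptor chains were present in every library, IFNAR1 at 19.1 CPM in D0 and 28.1 to 40.4 CPM in the grafts, and IFNAR2 at 15.1 CPM and 12.7 to 21.9 CPM. Neither differed between astrocyte-like and neuron-like cells by the test (IFNAR1 0.36, adjusted p = 0.0789 and IFNAR2 0.26, adjusted p = 0.371).

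Downstream of the receptor, 3 of 6 JAK-STAT genes were higher in astrocyte-like than in neuron-like cells. IRF9, the DNA-binding partner of the STAT complex, stood at 50.4, 35.1, 35.7 and 52.8 CPM in astrocyte-like cells and 3.59, 3.93, 1.498 and 5.87 CPM in neuron-like cells of HIP_2MPT, HIP_4MPT, PFC_2MPT and PFC_4MPT (log2 3.41, SE 0.24, adjusted p = 6.3e-07). STAT2 did not pass (0.20, adjusted p = 0.333). Of 63 other interferon-induced genes, 47 were tested, of which 29 were higher and 4 lower, with a median of 1.33. SP110, a nuclear body protein, was higher by 4.70 (SE 0.35) and IFITM2 by 5.05 (SE 0.36), whereas IFI44, the neighbour and relative of IFI44L, was lower (log2 -1.597, SE 0.22, adjusted p = 0.000129). Among all 17093 genes tested, 3672 were higher and 3554 lower. Of 13 antigen presentation genes, 11 were higher and 0 lower, among them B2M, the light chain of class I molecules (3.17, SE 0.20), and HLA-E (5.04, SE 0.23).

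Between stages and sites these lists gave few calls. Over all human cells 0 of 88 tested genes of the lists were called between 4MPT and 2MPT by edgeR's test, with 12 at an unadjusted p under 0.05, and 0 of 78 between PFC and HIP, with 1 at an unadjusted p under 0.05. Few of all genes were called either. Of 19074 genes, 352 were higher and 105 lower at 4MPT, and 15 of 18127 (0.0827%) were called between the sites. In astrocyte-like cells 2 of 61 were called between the stages, both lower at 4MPT: IRF1, a transcription factor of the interferon response (log2 -3.01), and AIM2, a sensor of cytosolic DNA (log2 -2.58). Among all 11873 genes tested there, 285 were higher and 115 lower. Against D0, of 52 other induced genes tested, 10 were higher and 13 lower at 2MPT, and 15 were higher and 15 lower at 4MPT. Of all 19074 genes, 5182 were higher and 4031 lower at 2MPT, and 5470 were higher and 4085 lower at 4MPT. Of 12 nucleic acid sensing genes tested, 4 were higher and 0 lower at 2MPT, and 6 were higher and 0 lower at 4MPT. Of 6 JAK-STAT genes, 1 was higher and 1 lower at 2MPT, and 4 were higher and 1 lower at 4MPT. IFI44 stood at 7.9 CPM in D0 and at 58.3, 80.3, 49.3 and 68.2 CPM in HIP_2MPT, HIP_4MPT, PFC_2MPT and PFC_4MPT, the opposite direction to IFI44L (log2 2.42 at 2MPT and 2.94 at 4MPT). CXCL10, an interferon-induced chemokine singled out after its values were seen, had 0 UMIs in every library, as did OAS1, a sensor of double-stranded RNA, in each graft library.

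Induced genes seen together in 1 cell were counted after thinning each cell to 1000 UMIs, so that depth was equal. At least 1 member was found in 15.8% of D0 cells and in 5.28% to 7.84% of graft cells. At least 3 members were found in 3 of 4603 cells of D0, 1 of 6642 of HIP_2MPT, 1 of 6742 of HIP_4MPT, 1 of 5719 of PFC_2MPT and 17 of 7381 of PFC_4MPT, the last being 0.230% (exact binomial interval 0.134% to 0.369%). PFC_4MPT was also the 1 library with cells holding 4 or more members, of which it had 9. Without thinning the shares were 14.8% in D0, the deepest library, 1.42% in HIP_4MPT and 0.825% in PFC_4MPT, so that the order of these 2 graft libraries depends on the thinning. The thinned shares leave out cells with under 1000 UMIs, which were 282 of 4885 in D0, 1635 of 8277 in HIP_2MPT, 171 of 6913 in HIP_4MPT, 233 of 5952 in PFC_2MPT and 982 of 8363 in PFC_4MPT.

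The 17 cells were not of 1 class. There were 8 astrocyte-like, 3 oligodendrocyte-lineage-like, 2 neuron-like, 1 progenitor-like and 3 unnamed cells. In them the 63 other induced genes, which had not been used to pick the cells, summed to 3006 CPM against 577 CPM in the other 7364 cells of the library. IRF9, one of them, was at 192 against 12.3 CPM. The 7364 cells were not matched to the 17 for class, and 6519 of the library's 8363 cells before thinning were neuron-like. These values describe a few cells of 1 library. A small number of cells also held much of some genes in PFC_4MPT: 18 cells with 3 or more UMIs of ISG15 held 32.9% of its UMIs, and 5 such cells held 24.5% of those of IFIT1.

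**Figure D5:**
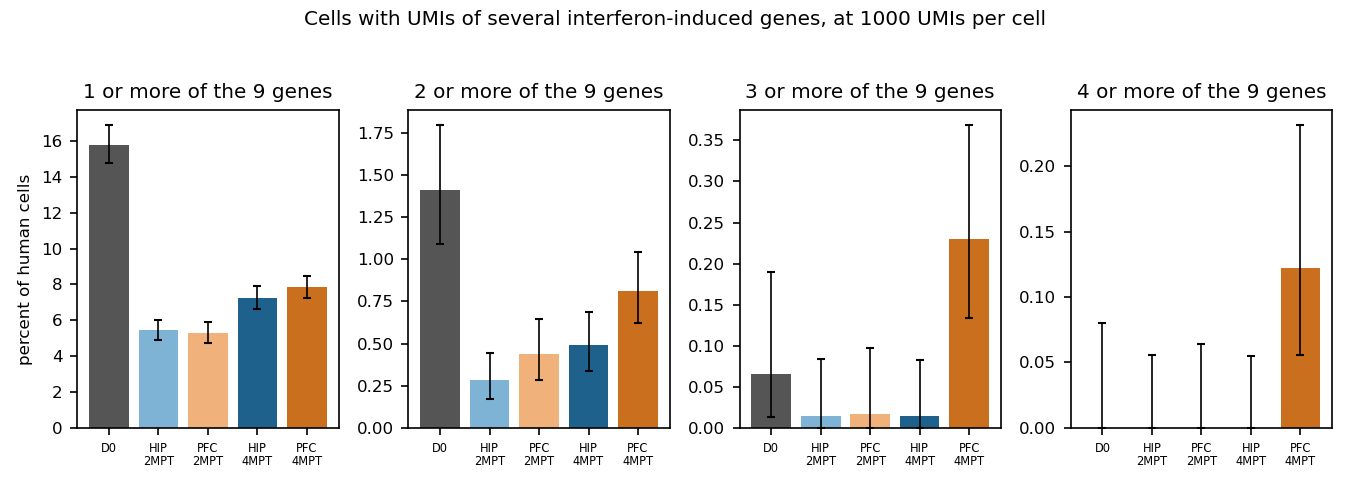
Percent of human cells with UMIs of several members in each library after thinning to 1000 UMIs per cell, with exact binomial intervals. PFC_4MPT reached 0.230% of cells with 3 or more members, against 0.0148% to 0.0652% in the other 4 libraries.

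The genes most like the members in pattern were found over 20 profiles of library and cell class, by the correlation with the members' mean log level. Among 10219 genes, CIB1 (r = 0.934), LRP10 (0.926), AEBP1 (0.926), AXL (0.915) and PBXIP1 (0.915) came first. Of the members, IFITM3 (0.83) and BST2 (0.76) were most like the mean of the other 8, and IFIT3 (0.42) and IFIT2 (0.38) least. The profiles share libraries and depth, and these correlations are given as a description.

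Host cells were part of each graft library, so the members were also counted in other ways. Counting against a joint human and mouse reference instead of the human one changed the levels of the members by little, keeping 96.3% to 103.8% of their UMIs. Barcodes of host cells numbered 772 to 2071 per graft library, and the human members summed there to 3 to 38 UMIs, which is 73.7 CPM of human UMIs in HIP_2MPT, 128 in HIP_4MPT, 61.2 in PFC_2MPT and 117 in PFC_4MPT. The sums in human cells of the same libraries, 64.0, 92.5, 67.0 and 119 CPM, lay within the exact Poisson intervals of these values. With a stricter limit on the human share of a host barcode, the sum in HIP_4MPT was 144 CPM (97.6 to 204), above the 92.5 CPM of its human cells, and the other 3 intervals still held the value of the human cells. In the same host barcodes as first counted, the mouse gene Isg15 stood at 210 CPM in HIP_2MPT, 18.0 in HIP_4MPT, 83.2 in PFC_2MPT and 125 in PFC_4MPT. Mouse Ifi44l, Ifit1, Ifit2, Ifit3, Ifitm3 and Bst2 were likewise lower at 4MPT than at 2MPT in the hippocampus and higher in the prefrontal cortex. Their human counterparts were higher at 4MPT at both sites. Several of these orders lie within counting error. In the prefrontal cortex mouse Ifit1 was at 4.92 CPM (2.25 to 9.35) at 2MPT and 6.56 (4.06 to 10.0) at 4MPT. Human IFI44L there was at 8.39 CPM (6.99 to 9.98) and 8.78 (7.42 to 10.3). The cell types among the host barcodes were not compared between libraries, and their part in the mouse values was not tested. Summed over all human cells of a library, markers of other cell types were low. Immune markers came to 5.08 to 16.5 CPM. Of the 9 immune markers, 3 were at 0 in D0 and 2 to 4 in each graft library, C1QA in all, and the rest had UMIs. Endothelial markers came to 5.62 to 17.9 CPM and mesenchymal or mural markers to 17.4 to 38.1 CPM. Their part in the results was not tested.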

How the data were processed

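Single-cell libraries (10x Genomics 3′, V3 chemistry) of 5 groups were analysed. The authors aligned the reads with Cell Ranger and deposited UMI counts per gene and cell: the file headers give release 3.1.0 for D0 and 5.0.0 for the grafts, while the submitters' processing notes name Cell Ranger 3.1. Human-reference counts were used, and the joint human and mouse reference was used to tell human from host cells (human share of at least 0.8, host at most 0.2). Cells needed 500 UMIs, 500 genes, a log10 genes to log10 UMIs ratio over 0.8 and a mitochondrial fraction under 0.15. No doublet caller was run. Clusters came from Seurat 5.3.0 with sctransform 0.4.2 and were named from markers. Counts were summed per library, or per library and class, and tested with edgeR 4.0.16 (quasi-likelihood, filterByExpr, TMM, Benjamini-Hochberg threshold 0.05) in R 4.3.3. DESeq2 1.42.0 was an alternative. The test was checked on simulated counts. CPM intervals are exact Poisson and shares exact binomial, both at 95%, and cover counting error only. Each group is 1 library, so HIP and PFC served as the 2 samples of a stage, and p-values measure the spread between these libraries. The members and gene lists were chosen with earlier results of these data known. Genes were named as members of the rule, and pathway genes by a minimum mean of 10 CPM and the size of change. Promoters are from RefSeq (GRCh38.p14) and positions from GENCODE on GRCh38. Values of some pathway genes are not reported here.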

Additional observations from a re-analysis of the deposited data

Results flagged for a closer look

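The change from 2MPT to 4MPT had opposite signs in the 2 host sites for 4 combinations of gene and cells. For ISG15 over all human cells it was 1.18 on the log2 scale in PFC and -0.82 in HIP, a gap of 2.00. For ISG15 the gap was 2.09 in neuron-like cells (0.86 in PFC, -1.24 in HIP) and 3.51 in progenitor-like cells (1.68 in PFC, -1.83 in HIP). For IFI6 in neuron-like cells it was 1.33 (0.98 in PFC, -0.35 in HIP). Each value rests on 1 library per site and stage, so these differences were not tested.

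The share of cells with 3 or more members after thinning was 0.2303% in PFC_4MPT and 0.01483% to 0.01749% in the other 3 graft libraries, a gap of 0.988 of the whole range, past the 95% critical value of Dixon's test for 4 samples. It was the 1 of 37 sets of 4 graft values to pass, and chance passes about 1 in 20. The other 3 values are 1 cell each, and the 4 libraries are different groups rather than replicates, so the test cannot measure how unusual PFC_4MPT was. Without thinning the share was higher in HIP_4MPT than in PFC_4MPT.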

How the results depend on the processing

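No estimate of a member reversed its sign with a call under any alternative. Leaving out 1 library at a time, the number of members called between 4MPT and 2MPT ranged from 0 to 4 over all cells (2 with all libraries) and from 0 to 2 in astrocyte-like cells (1 with all libraries). Over all cells it was 1 with the joint human and mouse reference and 0 without cells holding UMIs of 3 or more members. In astrocyte-like cells it was 0 with DESeq2, 2 without the low-count filter and 0 without those cells, and in neuron-like cells 1 without the filter. Against D0, sums over progenitor-like cells gave 1 call at each stage, compared with 5 at 2MPT and 4 at 4MPT over all cells. Progenitor-like against neuron-like cells gave 3 calls with no library block, where some members did not pass the low-count filter. Shares of cells with 3 or more members were 14.78% in D0, 1.418% in HIP_4MPT, 0.3024% in PFC_2MPT and 0.8251% in PFC_4MPT without thinning. The cause of these changes was not tested, beyond the fewer samples or genes that an alternative holds by construction. No paired analysis was possible because the labels give no replicate numbers shared between groups. The graft site was used as a block instead, which left the number of members called between 4MPT and 2MPT at 2 over all cells, 1 in astrocyte-like cells and 0 in neuron-like and progenitor-like cells. With the stage in the fit, no library could be left out of PFC against HIP, which would leave no residual degrees of freedom. Depth limits the sparse genes: MX1, IFIT1 and IFIT2 had 6 to 19 UMIs in the 2MPT libraries.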
